A study of Mus musculus with 10 samples.

Results

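The 9 genes described here encode cargo or membrane proteins of specific and gelatinase granules, plus an enzyme that comes up late in the same cells. They are Ltf, Camp, Ngp, Lcn2, Chil3, Mmp8, Mmp9, Cd177 and Padi4, and they were taken by symbol out of the 24015 genes of the count table. All 9 had reads in every library and passed the filter on low counts, which kept 12971 genes.

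Neutrophils store secreted proteins in granules that form one after another as the cell matures. Primary granules fill first, at the promyelocyte stage, specific granules follow in myelocytes, and gelatinase granules form last. The genes of the late granules are low or silent in early myeloid progenitors and are known to need the transcription factor C/EBPε, so their RNA is widely used as a readout of how far granulocytic maturation has gone.

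RNA was sequenced from MAF9 cells, bone marrow cells of C57BL/6 mice transduced with the MLL-AF9 leukemia fusion gene and kept in medium with 15% serum and 10 ng/ml interleukin-3. The cells were grown for 4 days with DMSO or with 1 of 4 inhibitors, each at its own IC50: MM-401, which blocks binding of MLL1 to WDR5, EPZ5676 against the histone methyltransferase DOT1L (labelled EPZ), MI-2-2 against MENIN (labelled MI), or iBET. Each of the 5 groups had 2 libraries of 20394762 to 29473127 reads. The cultures were not sorted, so fewer maturing cells and less RNA per cell cannot be told apart, and since the study calls the replicates biological duplicates without saying whether they were separate cultures, p-values measure only the spread between these libraries.

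Before the values, the DNA just upstream of 4 of the genes is shown, because these hold the letters of a C/EBP site. The RefSeq promoter table (GRCm38.p6, 250 bases before to 50 after each start) had an entry for 8 of the 9 genes, and none for Mmp9. The letters searched were TTNNGCAA for C/EBP, on both strands, and 4 of the 8 windows held them, against 10.8% of 32851 promoters of that length. The stretches are the 250 bases before the start, each 5′ to 3′ toward its gene, with capitals marking the C/EBP letters.
Ltf: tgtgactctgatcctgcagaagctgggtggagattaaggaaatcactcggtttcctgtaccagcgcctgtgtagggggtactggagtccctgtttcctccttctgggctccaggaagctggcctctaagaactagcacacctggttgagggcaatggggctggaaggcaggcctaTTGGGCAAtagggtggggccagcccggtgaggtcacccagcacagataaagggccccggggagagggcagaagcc
Ngp: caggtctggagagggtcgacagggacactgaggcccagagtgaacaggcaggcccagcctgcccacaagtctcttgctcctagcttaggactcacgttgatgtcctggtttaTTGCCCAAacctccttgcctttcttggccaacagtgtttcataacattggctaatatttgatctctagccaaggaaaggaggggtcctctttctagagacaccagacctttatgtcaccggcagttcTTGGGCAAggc
Lcn2: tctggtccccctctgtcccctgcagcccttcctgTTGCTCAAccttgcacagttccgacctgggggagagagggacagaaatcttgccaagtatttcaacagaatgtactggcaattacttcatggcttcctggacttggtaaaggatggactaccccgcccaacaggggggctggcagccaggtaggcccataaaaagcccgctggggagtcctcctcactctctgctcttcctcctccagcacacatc
Mmp8: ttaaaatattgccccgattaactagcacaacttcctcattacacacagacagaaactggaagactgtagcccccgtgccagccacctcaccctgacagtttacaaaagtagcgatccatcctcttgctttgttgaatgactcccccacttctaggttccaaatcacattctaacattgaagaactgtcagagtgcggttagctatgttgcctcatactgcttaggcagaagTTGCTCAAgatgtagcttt
The positions are chr9:111019042-111019291 for Ltf, plus strand, chr9:110419558-110419807 for Ngp, plus strand, chr2:32387740-32387989 for Lcn2, minus strand, and chr9:7558179-7558428 for Mmp8, plus strand. The match began 75 bases upstream of the start in Ltf, 138 and 11 in Ngp, 216 in Lcn2 and 19 in Mmp8. The PU.1 letters GAGGAA, which overlap none of these matches, were in 4 of the 8 windows and in 28.3% of all promoters. The STAT letters TTCNNNGAA were in 1 of the 8, Chil3, and in 8.3% of all, and the TATA box letters TATAAA in 4 of the 8 and in 13.6% of all. These letters too were searched on both strands. TATAAA began 40 bases upstream of the start in Cd177, 31 in Padi4 and only 3 in Chil3 and Mmp8, in Mmp8 on the strand opposite to the gene. A match is a description of the letters and not a bound site.

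The main features of the data were as follows. All 9 genes rose with EPZ5676 and all 9 rose with MI-2-2 against DMSO, by 6.04-fold (Padi4) to 234-fold (Ltf) with the former and by 5.66-fold (Padi4) to 267-fold (Ltf) with the latter. With iBET 4 of the 9 fell, with Camp 15.1-fold lower than in DMSO. With MM-401 none passed the test, although 8 of the 9 fold changes were positive. Together the 9 genes took 0.0332% and 0.113% of all reads in the DMSO libraries, 0.150% and 0.187% with MM-401, 2.24% and 2.79% with EPZ5676, 2.18% and 2.16% with MI-2-2, and 0.0132% and 0.0283% with iBET.

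**Figure D1:**
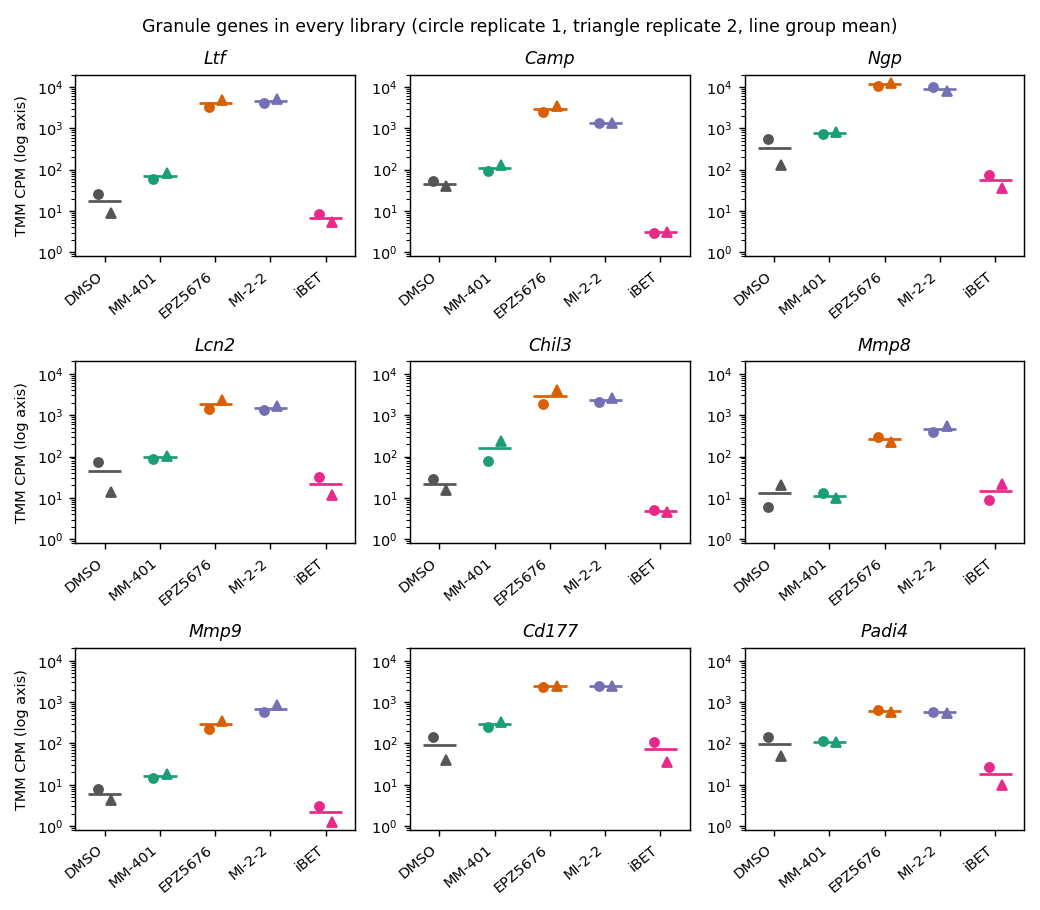
Level of each of the 9 granule genes in every library, in library-scaled read counts (TMM CPM, log axis); circles are replicate 1, triangles replicate 2 and lines the mean of a group's 2 libraries. In every panel the 4 EPZ5676 and MI-2-2 libraries lay above the 6 others, and in Camp both iBET libraries lay near 3 TMM CPM.

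The cells carried myeloid RNA throughout, with the 12 primary granule genes summing to 6895 to 16302 TMM CPM in the 10 libraries, but the 2 DMSO libraries stood apart from each other. DMSO replicate 2 held 3630 reads of 4 Y-linked genes, against 0 to 2 in each of the other 9 libraries, and 4.76 CPM of Xist against 928 to 3051, which sets its cells apart from those of the rest. Of the 9 granule genes 8 were lower in DMSO replicate 2 than in DMSO replicate 1, and 6 were more than 2-fold apart. The 2 iBET libraries were also unequal, with 7 of 9 genes lower in replicate 2 and 6 more than 2-fold apart, whereas none was in MI-2-2 and 1 each was in MM-401 and EPZ5676. The part of this in the results was not tested, and counts or medians against DMSO are given below also without either DMSO library.

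Ltf encodes lactoferrin, an iron-binding antimicrobial protein of specific granules. It stood at 25.2 and 8.92 TMM CPM (read counts scaled to library size with edgeR's TMM factors) in the 2 DMSO libraries, 59.2 and 84.4 with MM-401, 3194 and 4829 with EPZ5676, 4053 and 5093 with MI-2-2, and 8.44 and 5.47 with iBET. The inhibitor libraries fell into 3 separate levels, and the iBET libraries lay just under the lower DMSO library. The log2 fold change against DMSO was 7.87 ± 0.62 (SE, n = 2 libraries against 2, edgeR quasi-likelihood adjusted p = 0.000373) with EPZ5676 and 8.06 ± 0.62 (adjusted p = 0.000316) with MI-2-2, the widest change of the 9 with either inhibitor.

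Camp encodes the cathelicidin antimicrobial peptide, also a specific granule protein. Its replicates were the closest of the 9 in the control, at 52.7 and 39.3 TMM CPM in DMSO, and it measured 94.8 and 127 with MM-401, 2466 and 3496 with EPZ5676, 1367 and 1354 with MI-2-2, and 2.96 and 3.10 with iBET. No pair of the 5 groups overlapped. The log2 fold change was 6.02 ± 0.28 with EPZ5676 (adjusted p = 0.000173), 4.89 ± 0.27 with MI-2-2 (adjusted p = 0.000179) and -3.92 ± 0.27 with iBET (adjusted p = 0.000818).

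Ngp encodes neutrophilic granule protein, a cystatin-related protein of mouse granules, and was the most abundant of the set per length. It measured 553 and 133 TMM CPM in DMSO, 718 and 804 with MM-401, 10724 and 12547 with EPZ5676, 9788 and 8193 with MI-2-2, and 75.7 and 36.5 with iBET. The iBET libraries lay below both controls, which were themselves 4.18-fold apart. Against DMSO, Ngp rose by 5.08 ± 0.70 on the log2 scale with EPZ5676 (adjusted p = 0.00164) and 4.71 ± 0.68 with MI-2-2 (adjusted p = 0.00187). Ngp made up 27.7% and 28.4% of the reads of the 9 genes with iBET and 35.3% to 53.1% in the 8 other libraries.

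Lcn2 encodes lipocalin 2, which binds bacterial siderophores. Its level was 75.6 and 13.5 TMM CPM in DMSO, 87.7 and 105 with MM-401, 1374 and 2275 with EPZ5676, 1325 and 1669.8 with MI-2-2, and 31.9 and 11.6 with iBET. The control libraries were 5.59-fold apart, the widest gap of any gene of the set in any group, and the iBET values overlapped them. The change was 5.35 ± 0.86 on the log2 scale with EPZ5676 (adjusted p = 0.0029) and 5.07 ± 0.85 with MI-2-2 (adjusted p = 0.00318).

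Chil3 encodes the chitinase-like lectin Ym1, abundant in mouse neutrophils. Libraries held 29.1 and 15.3 TMM CPM in DMSO, 80.1 and 239.8 with MM-401, 1839 and 4116 with EPZ5676, 2034 and 2576 with MI-2-2, and 5.04 and 4.48 with iBET. Both MM-401 libraries lay above both controls, and both iBET libraries below. On the log2 scale Chil3 rose by 7.06 ± 0.72 with EPZ5676 (adjusted p = 0.00069) and 6.69 ± 0.71 with MI-2-2 (adjusted p = 0.000731). Its near-identical neighbour in the gene family, Chil4, had 0 to 24 reads in any library, and how reads matching both genes were counted is not given in the sources used here, so the value of Chil3 is uncertain to that extent.

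The 2 other cargo genes encode enzymes that cut collagen and gelatin. Mmp8, the neutrophil collagenase, measured 5.92 and 20.1 TMM CPM in DMSO, 12.9 and 9.75 with MM-401, 295 and 230.4 with EPZ5676, 397 and 547 with MI-2-2, and 8.84 and 21.3 with iBET. It was the only one of the 9 higher in DMSO replicate 2 than in replicate 1, and its DMSO, MM-401 and iBET libraries overlapped. Mmp9, gelatinase B and the namesake of the gelatinase granule, measured 7.98 and 4.17 TMM CPM in DMSO, 14.8 and 18.0 with MM-401, 220.1 and 354 with EPZ5676, 560.5 and 831 with MI-2-2, and 3.09 and 1.22 with iBET. Both enzymes were higher in each MI-2-2 library than in either EPZ5676 library. Against DMSO the log2 fold change was 4.35 ± 0.62 with EPZ5676 and 5.19 ± 0.65 with MI-2-2 for Mmp8, and 5.55 ± 0.51 and 6.83 ± 0.53 for Mmp9.

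Cd177 encodes a surface protein that specific granules carry to the neutrophil membrane. It measured 145 and 40.3 TMM CPM in DMSO, 253 and 325 with MM-401, 2356 and 2407 with EPZ5676, 2394.3 and 2393.8 with MI-2-2, and 111 and 34.8 with iBET. The 4 EPZ5676 and MI-2-2 libraries lay within 1 narrow band, while iBET and DMSO overlapped. The log2 fold change was 4.69 ± 0.72 both with EPZ5676 (adjusted p = 0.00251) and with MI-2-2 (adjusted p = 0.00232).

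Padi4 encodes peptidylarginine deiminase 4, a nuclear enzyme that converts histone arginines to citrulline and takes part in the release of neutrophil extracellular traps. It measured 147 and 50.7 TMM CPM in DMSO, 113 and 108 with MM-401, 631 and 563 with EPZ5676, 568 and 552 with MI-2-2, and 26.7 and 10.0 with iBET. MM-401 lay between the 2 controls. Its rise was the smallest of the 9, at 2.59 ± 0.54 on the log2 scale with EPZ5676 (adjusted p = 0.00817) and 2.50 ± 0.54 with MI-2-2 (adjusted p = 0.00853).

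**Figure D2:**
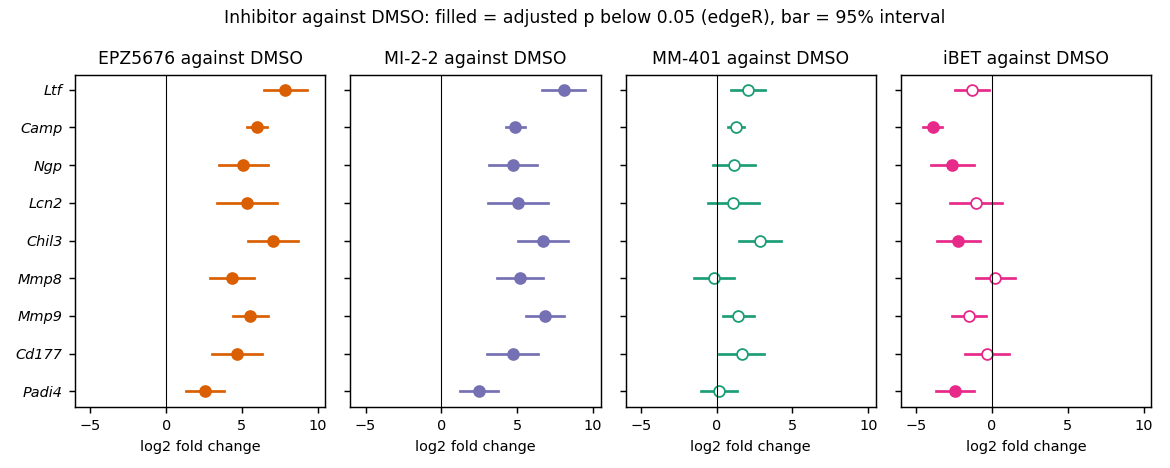
Log2 fold change of the 9 genes with each inhibitor against DMSO from 1 edgeR fit of 10 libraries; bars are 95% intervals and filled points have an adjusted p below 0.05. All 9 points are filled with EPZ5676 and with MI-2-2, none with MM-401, and those of Camp, Ngp, Chil3 and Padi4 with iBET.

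The 4 comparisons with DMSO share their control libraries, so they are not independent of each other. With EPZ5676 9 of 9 genes rose where 18.7% of all 12971 genes did, with a median log2 fold change of 5.35 against -0.06 over all genes. With MI-2-2 9 of 9 rose where 20.2% of all genes did, with a median of 5.07 against -0.05. Both counts stayed at 9 when any 1 of the 10 libraries was left out. Without DMSO replicate 2 the log2 fold changes ran from 2.05 to 7.33 with EPZ5676 and from 1.96 to 7.53 with MI-2-2, and without DMSO replicate 1 from 3.56 to 8.82 and from 3.47 to 9.01.

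Against DMSO, iBET lowered Camp by 15.1-fold, Ngp by 6.12-fold, Padi4 by 5.40-fold and Chil3 by 4.68-fold, with adjusted p of 0.000818, 0.0324, 0.0264 and 0.048 by edgeR. In the same comparison 7.54% of all genes fell. The values of the other 5 were a log2 fold change of -1.52 for Mmp9, -1.30 for Ltf, -1.04 for Lcn2, -0.34 for Cd177 and 0.23 for Mmp8. In 6 of the 9 genes both iBET libraries lay below both DMSO libraries, as they did for 26.9% of all genes. Camp was called in 10 of 10 fits that left out 1 library each, Padi4 in 6, Chil3 in 3 and Ngp in 2, and the number called was 3 without DMSO replicate 1, 7 without DMSO replicate 2 and 1 without iBET replicate 1 or 2. All genes called numbered 1806 in the full fit, and 3720, 2864, 262 and 150 in those 4 fits. Without DMSO replicate 1 and without DMSO replicate 2, the log2 fold change was -3.69 and -4.12 for Camp, -1.24 and -3.30 for Ngp, -1.47 and -3.004 for Padi4, and -1.68 and -2.62 for Chil3, and Chil3 lost its call without replicate 1 (adjusted p = 0.108).

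With MM-401 0 of 9 genes and 0% of all genes passed the edgeR test. At an unadjusted p below 0.05 there were 5 of the 9 (Camp, Chil3, Ltf, Mmp9 and Cd177) and 1450 of all genes, and DESeq2 called 4 of the 9 and 297 of all genes. The log2 fold change was 2.84 ± 0.60 for Chil3 (adjusted p = 0.273), 2.07 ± 0.48 for Ltf (adjusted p = 0.292) and 1.27 ± 0.23 for Camp (adjusted p = 0.223), and its 95% interval for Padi4 ran from -1.02 to 1.35. Both MM-401 libraries exceeded both controls in 7 of the 9 genes, against 19.5% of all genes. Without DMSO replicate 1, which leaves the library with Y-linked reads as the only control, 6 of the 9 and 1368 of all genes were called, and without DMSO replicate 2 none of the 9 and 0 of all genes.

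Between EPZ5676 and MI-2-2, inhibitors of 2 different proteins that were each given at its own IC50, 0 of 9 genes were called, where 0.0154% of all genes were. The largest differences at an unadjusted p below 0.05 went opposite ways. Camp was 2.19-fold higher with EPZ5676 (log2 difference 1.13, 95% interval 0.60 to 1.66, adjusted p = 0.246) and Mmp9 was 2.42-fold higher with MI-2-2 (log2 difference -1.28, interval -2.23 to -0.32, adjusted p = 0.52). Camp was called by DESeq2 (adjusted p = 0.00054) and by an edgeR fit of the 8 inhibitor libraries alone (adjusted p = 0.0493), with log2 differences of 1.13 and 1.13. These fits called 155 and 126 of all genes, against 2 in the main fit. For the other 7 genes the 95% interval of the log2 difference included 0 and ran, at its widest, from -1.37 to 1.94 for Lcn2 and, at its narrowest, from -1.24 to 0.86 for Ltf, so equal levels were not shown either. The estimate nearest 0 was that of Cd177, at -0.01 with an interval from -1.44 to 1.42. Both EPZ5676 libraries lay above both MI-2-2 libraries for Camp and Ngp and below them for Mmp8 and Mmp9, as they did for 18.6% and 20.8% of all genes.

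**Figure D3:**
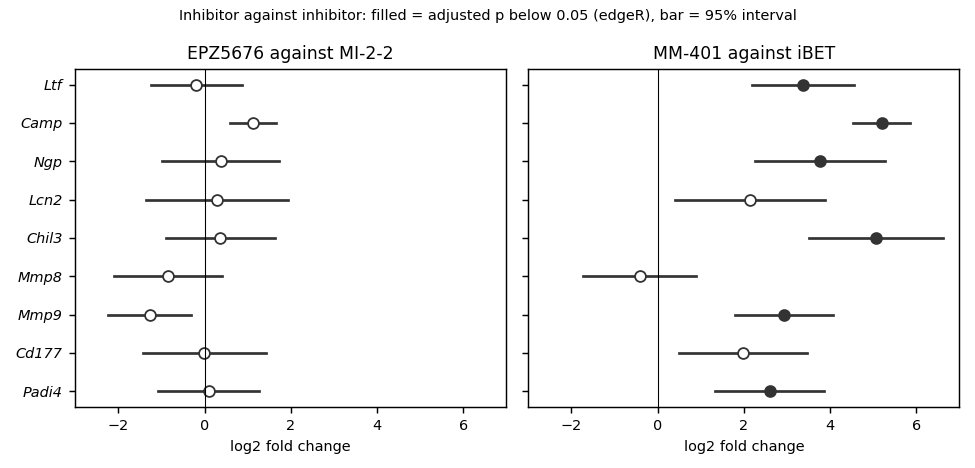
Log2 difference of the 9 genes between EPZ5676 and MI-2-2 (left) and between MM-401 and iBET (right); bars are 95% intervals and filled points have an adjusted p below 0.05 by edgeR. On the left no point is filled, with Camp at 1.13 and Mmp9 at -1.28, and on the right 6 are filled.

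MM-401 and iBET, set against each other without the DMSO libraries entering the difference, differed in 6 of the 9 genes, all higher with MM-401, where 5.96% of all genes were higher. Camp was 36.6-fold and Chil3 33.6-fold higher with MM-401, Ngp 13.6-fold, Ltf 10.3-fold, Mmp9 7.68-fold and Padi4 6.05-fold. Lcn2 (log2 difference 2.15, adjusted p = 0.109), Cd177 (1.99, adjusted p = 0.089) and Mmp8 (-0.41, adjusted p = 0.683) did not pass. In 8 of the 9 genes, all but Mmp8, both MM-401 libraries lay above both iBET libraries, against 36.8% of all genes. The number called fell to 3 and 2 without MM-401 replicate 1 or 2, and to 3 and 1 without iBET replicate 1 or 2, while all genes called fell from 1484 to 266, 183, 274 and 223. Camp was called in 10 of 10 such fits.

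EPZ5676 and MI-2-2 each gave higher levels than MM-401 in 9 of 9 genes, where 16.7% and 18% of all genes were higher, and than iBET in 9 of 9, where 19.1% and 19.7% were. Against MM-401 the log2 difference ran from 2.43 (Padi4) to 5.80 (Ltf) with EPZ5676 and from 2.34 (Padi4) to 5.99 (Ltf) with MI-2-2. Against iBET it ran from 4.12 (Mmp8) to 9.94 (Camp) with EPZ5676, and from 4.93 (Padi4) to 9.36 (Ltf) with MI-2-2. Without MM-401 replicate 1 the count for MI-2-2 against MM-401 was 5 of 9, and that of all genes 1863 in place of 4630, with Ngp, Lcn2, Cd177 and Padi4 at adjusted p of 0.0506 to 0.0821.

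For the order of abundance, TMM CPM were divided by the exon length of each gene in kilobases to give a level per length (RPKM). Ngp was first of the 9 in each of the 5 groups and Camp second in all but iBET. In EPZ5676 the group means were 9522 RPKM for Ngp, 3933 for Camp, 1825 for Chil3, 1163 for Ltf, 838 for Cd177, 696 for Lcn2, 123 for Padi4, 108 for Mmp8 and 81.2 for Mmp9. Ngp then ranked 3rd and Camp 5th among 23640 genes with a length. In MI-2-2 Ngp also ranked 3rd, Camp was 7th, and the order of the 9 matched that of EPZ5676 in the first 6 places, followed by Mmp9, Mmp8 and Padi4 at 197, 195 and 116 RPKM.

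Neighbours in that order did not always differ beyond their libraries. In EPZ5676 the ranges of Chil3 and Ltf, Cd177 and Lcn2, Padi4 and Mmp8, and Mmp8 and Mmp9 overlapped, and in MI-2-2 those of Chil3 and Ltf and of Mmp9 and Mmp8. In DMSO the order was Ngp (281 RPKM), Camp (60.7), Cd177 (32.6), Padi4 (20.4), Lcn2 (17.0), Chil3 (13.6), Mmp8 (5.36), Ltf (4.95) and Mmp9 (1.72), with overlap from Cd177 through Chil3 and between Mmp8 and Ltf. Ltf was thus 8th of the 9 in the control and 4th with either EPZ5676 or MI-2-2. With MM-401 the order ran Ngp (623), Camp (147), Cd177 (102), Chil3 (98.0), Lcn2 (36.7), Padi4 (22.9), Ltf (20.8), Mmp8 (4.68) and Mmp9 (4.64), and Cd177 overlapped Chil3, Padi4 overlapped Ltf and Mmp8 overlapped Mmp9.

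With iBET the order was Ngp (45.9 RPKM), Cd177 (25.7), Lcn2 (8.29), Mmp8 (6.22), Camp (4.00), Padi4 (3.79), Chil3 (2.92), Ltf (2.02) and Mmp9 (0.61). Camp dropped from the second place it held in the 4 other groups to the fifth. Only the steps from Cd177 to Lcn2, from Chil3 to Ltf and from Ltf to Mmp9 were free of overlap. With the longest transcript as the length in place of all exons, places moved in every group, but Ngp stayed first in all 5.

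**Figure D4:**
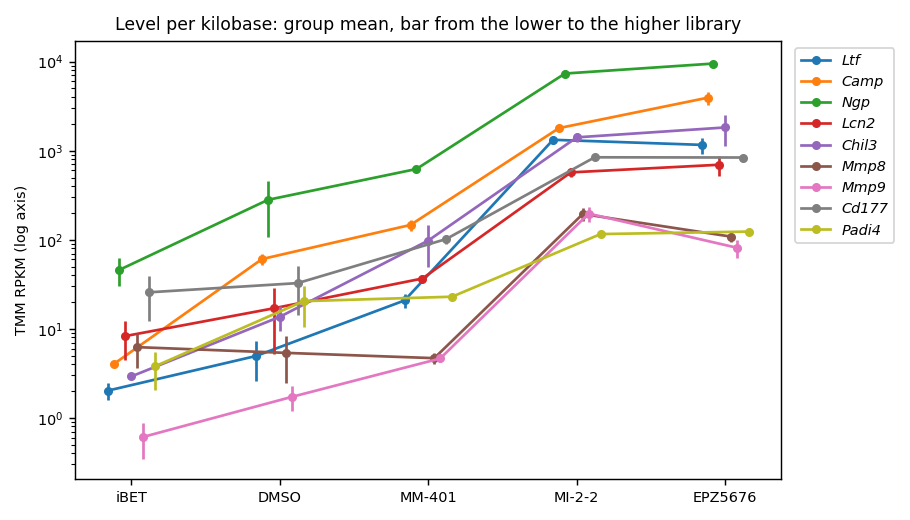
Mean level per kilobase (TMM RPKM, log axis) of the 9 genes in the 5 groups; vertical bars run from the lower to the higher library. Ngp is on top in every group, and the line of Ltf rises from 4.95 RPKM in DMSO to 1163 in EPZ5676 and 1325 in MI-2-2.

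Most other genes of the late granules moved the same way. Of a list of 30 further proteins of specific, gelatinase and secretory granules or of late neutrophils 28 were tested. Of these 26 rose with EPZ5676 and 26 with MI-2-2, where 18.7% and 20.2% of all genes rose. The medians of the list were 4.16 and 3.96 on the log2 scale. Hp and Slpi were the pair that did not pass with either. The 4 most abundant were S100a9 and S100a8, the calprotectin subunits, and Itgam and Itgb2, the chains of the integrin Mac-1. Their log2 fold changes with EPZ5676 were 4.81, 4.19, 2.53 and 1.47, and with MI-2-2 4.28, 3.83, 2.68 and 1.49. With iBET 9 of the 28 fell and 1, Anxa1, rose, where 7.54% of all genes fell and 6.38% rose. With MM-401 0 of the 28 and 0% of all genes were called, with a list median of 1.26 that stood beside the 1.27 of the 9 genes. The list median without DMSO replicate 1 and without DMSO replicate 2 was 5.67 and 4.06 with EPZ5676, and 5.35 and 3.88 with MI-2-2. It was 2.64 and 0.65 with MM-401. With iBET the median was 0.05 without DMSO replicate 1 and -2.42 without DMSO replicate 2, beside -1.87 with both.

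Primary granule genes were split in direction. Of 12 tested, 2 rose and 5 fell with EPZ5676, 3 rose and 5 fell with MI-2-2, and 3 rose and 4 fell with iBET. Of all genes 18.7%, 20.2% and 6.38% rose and 19.4%, 21.2% and 7.54% fell with these 3 inhibitors. The serine proteases Elane and Prtn3 fell with both EPZ5676 (log2 fold change -1.63 and -1.42) and MI-2-2 (-2.29 and -2.20), as did Ctsg (-2.34 and -1.51). Lyz2, lysozyme, rose with EPZ5676 (4.04), MI-2-2 (3.57) and iBET (2.00). The median over the list was -0.41 with EPZ5676 and -0.55 with MI-2-2. Without DMSO replicate 1 and without DMSO replicate 2, that median was -0.18 and -0.49 with EPZ5676 and -0.37 and -0.77 with MI-2-2. In these fits it was 0.11 and 0.28 with MM-401, beside 0.098 with both libraries, and -0.29 and -0.23 with iBET, beside -0.30.

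Of 12 transcription factors known to act on granule genes, 6 rose with EPZ5676, 6 rose and 1 fell with MI-2-2, 2 rose and 1 fell with iBET, and 0 were called with MM-401. Of all genes 18.7%, 20.2% and 6.38% rose with EPZ5676, MI-2-2 and iBET. Without a DMSO library 6 to 8 of the 12 rose with EPZ5676 or MI-2-2, with 0 or 1 falling, and with iBET 5 rose and 2 fell without replicate 1 and 1 rose and 1 fell without replicate 2. Among the 4 most abundant, Spi1, which encodes PU.1, rose with EPZ5676 (1.03) and MI-2-2 (0.89), whereas Xbp1 and Gfi1 passed with none of the 4 inhibitors, and Cux1 rose with iBET (0.79). Cebpe, the gene for C/EBPε, is named after its values were seen. It measured 107 and 108 TMM CPM in DMSO, 132 and 153 with MM-401, 315 and 461 with EPZ5676, 309.4 and 308.7 with MI-2-2, and 31.3 and 19.5 with iBET. Its log2 fold change was 1.85 ± 0.25 with EPZ5676 (adjusted p = 0.00154), 1.52 ± 0.25 with MI-2-2 (adjusted p = 0.00277) and -2.08 ± 0.25 with iBET (adjusted p = 0.00437), and 0.40 ± 0.24 with MM-401 (adjusted p = 0.588). Without DMSO replicate 1 or 2 these calls held, with -2.09 and -2.07 for iBET.

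**Figure D5:**
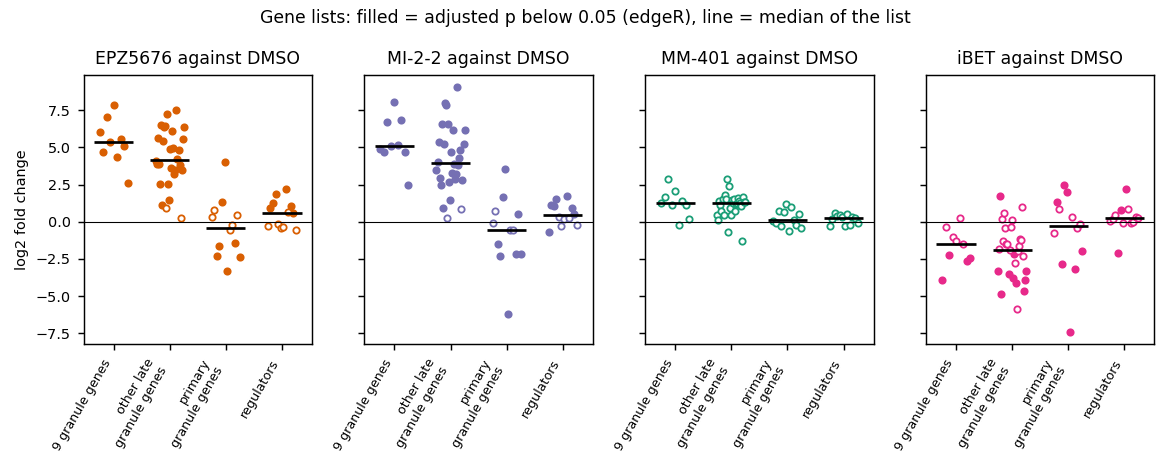
Log2 fold change against DMSO of each tested gene of 4 lists (the 9 granule genes, 28 other late granule genes, 12 primary granule genes and 12 regulators); filled points have an adjusted p below 0.05 by edgeR and lines are medians. With EPZ5676 and MI-2-2 both late granule lists lie above 0 (medians 5.35 and 4.16, and 5.07 and 3.96) while the medians of the primary granule list lie below 0.

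Markers of other cells were followed in the same libraries. Of 10 receptors of mature neutrophils 5 rose and 1 fell with EPZ5676, and 6 rose with MI-2-2, among them the G-CSF receptor Csf3r (2.60 and 2.97). Of 14 monocyte and macrophage genes 8 rose with EPZ5676 and 9 with MI-2-2, where 18.7% and 20.2% of all genes rose. With EPZ5676 19.4% of all genes fell. The median log2 fold change of the 10 receptors was 2.12 with EPZ5676 and 2.19 with MI-2-2. It was 1.82 and 1.98 without DMSO replicate 1, and 1.85 and 1.77 without DMSO replicate 2. For the 14 genes the medians were 1.79 and 2.10. Without DMSO replicate 1 these were 2.25 and 2.64, and without DMSO replicate 2 they were 2.43 and 2.55. The summed level of the 14 was 1891 and 2059 TMM CPM with EPZ5676, 2448 and 2647 with MI-2-2, 1475 and 2267 in DMSO, 1947 and 2154 with MM-401, and 1232 and 1592 with iBET. At 0 reads were 4 of the 14 in DMSO replicate 2 (C1qa, C1qb, C1qc and Cd163) and none in the 8 inhibitor libraries. Eosinophil genes summed to at most 8.33 TMM CPM, mast cell and basophil genes to at most 20.4, erythroid genes to at most 1.60 and lymphoid genes to at most 8.33 in any library. Among them 1 of 8 eosinophil genes (Ear1), 4 of 8 mast cell and basophil genes (with Fcer1a and Tpsb2) and 3 of 8 lymphoid genes (Cd3e, Cd8a and Ms4a1) had 0 reads in all 10 libraries. The part that monocytic cells had in the levels of the 9 genes was not tested.

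The 9 genes varied together across the 10 libraries. Over the 36 pairs Pearson's r of the log2 levels had a median of 0.966, from 0.763 (Mmp8 and Padi4) to 0.993 (Lcn2 and Cd177). The points share their libraries and depth and consist of 2 high groups and 3 low ones. Over the 8 inhibitor libraries r ran from 0.824 to 0.995.

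A mean of 5 CPM or more was found for 9936 genes, and of these the ones whose pattern over the 10 libraries was most like the average of the 9 were C5ar2 (r = 0.997), Stfa3 (0.996), Zfp831 (0.995), Chil1 (0.994) and Slc22a15 (0.994). C5ar2 encodes a receptor for complement C5a, and Stfa3 a stefin, a cysteine protease inhibitor. Stfa3 measured 12.8 and 1.97 TMM CPM in DMSO, 14.0 and 22.6 with MM-401, 501 and 733 with EPZ5676, 475 and 622 with MI-2-2, and 0.75 and 0.77 with iBET. For single genes the nearest pattern was Ceacam10 for Ltf (r = 0.998), Pdlim2 for Camp (0.993), Rdh12 for Ngp (0.997), S1pr4 for Lcn2 (0.995), Pstpip1 for Chil3 (0.995), Cyp4f18 for Mmp8 (0.983), Siglec1 for Mmp9 (0.996), S100a9 for Cd177 (0.992) and Slc2a3 for Padi4 (0.997). By rank correlation 1 of the top 5, Chil1, was kept.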

How the data were processed

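Total RNA libraries of 5 groups with 2 libraries each were analysed from the raw read counts per gene that the authors deposited. The submitters' processing notes name TopHat2, Subread, DESeq and the genome build mm9, without versions or roles. Libraries held 20394762 to 29473127 reads. Counts were fitted with edgeR 4.0.16 in R 4.3.3 (filterByExpr, TMM, glmQLFit, glmQLFTest) in 1 model of all 10 libraries, and p-values were adjusted by Benjamini-Hochberg over 12971 genes in each of 10 comparisons, with a threshold of 0.05. TMM CPM are CPM on TMM-scaled library sizes. Standard errors (SE) were derived from the edgeR test, as the absolute log2 fold change over the square root of its F statistic. The 95% intervals used these and the t distribution with the degrees of freedom of the fit (7.96). Exon lengths came from GENCODE M21 (23640 genes, of which 22709 matched by symbol and 931 by an older symbol), promoters from RefSeq on GRCm38.p6. Likeness was Pearson's r of log2(TMM CPM + 1). Alternatives were DESeq2 1.42.0, its size factors, total counts, other filters, a replicate block, the 8 inhibitor libraries alone and each library left out. The list medians without each DMSO library were added after seeing the data.

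The members and lists were chosen with earlier results of these data known. Named were all 9 genes, the 4 most abundant tested genes of a list, the 5 genes most alike and the nearest to each member; Cebpe, Anxa1, Hp, Slpi and the markers at 0 reads were named after their values were seen. Of the lists, 8 of 9 eosinophil, 8 mast cell and basophil, 7 erythroid and 8 lymphoid genes were in the table. The fit was checked on simulated data.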

Additional observations from a re-analysis of the deposited data

How the results depend on the processing

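Across the alternatives, the 9 of 9 calls of EPZ5676 and MI-2-2 against DMSO and against iBET were kept in all. For MM-401 against DMSO 4 genes were called by DESeq2 and 6 without DMSO replicate 1 (0 to 6 over the fits without 1 library). For iBET against DMSO those fits gave 1 to 7 genes, for MM-401 against iBET 1 to 8, for EPZ5676 against MM-401 6 to 9 and for MI-2-2 against MM-401 5 to 9. The number of all genes called in each of these comparisons also varied widely between the fits without 1 library. The ranges alone therefore do not show a change particular to the 9 genes. For EPZ5676 against MI-2-2 1 gene, Camp, was called in the 8 inhibitor libraries alone and by DESeq2, where 126 and 155 of all genes were. With the longest transcript as length, 7 of 9 places in the order were kept in DMSO, MM-401, EPZ5676 and iBET and 5 in MI-2-2. Of the 5 genes most alike, 1 was kept by rank correlation, 2 in the 8 inhibitor libraries and 3 with a pseudocount of 0.1.

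Of single log2 fold changes, 14 turned sign, none of them called. In the fits without 1 library, those of MM-401 against DMSO ran from -0.82 to 0.92 for Mmp8 and from -0.42 to 1.13 for Padi4, with Mmp8 at 0.0036 without MM-401 replicate 2. Those of iBET against DMSO ran from -1.95 to 0.68 for Lcn2, from -0.54 to 1.35 for Mmp8 (-0.40 without DMSO replicate 1) and from -1.41 to 0.86 for Cd177 (0.27 without iBET replicate 2). Those of EPZ5676 against MI-2-2 ran from -0.52 to 0.079 for Ltf, from -0.13 to 0.60 for Lcn2, from -0.33 to 0.84 for Chil3 and from -0.024 to 0.0073 for Cd177, which was 0.00063 among genes with a mean of 1 CPM or more. That of Mmp8 for MM-401 against iBET ran from -0.91 to 0.36. The cause of these changes was not tested.

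The labels share replicate numbers 1 and 2 between groups without saying that a number marks a batch. The differences between replicates correlated across genes at 0.311 to 0.716 over the 10 pairs of groups. With the replicate block, Cd177 passed in MM-401 against iBET (log2 difference 2.18, edgeR adjusted p = 0.0406) and no other call on the 9 genes changed. The block moved the number of all genes called from 1806 to 3088 for iBET against DMSO, from 1484 to 2470 for MM-401 against iBET and from 2 to 4 for EPZ5676 against MI-2-2.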
